A study of Homo sapiens with 6 samples.

Results

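A set of 10 genes known for their expression in human pluripotent stem cells, NANOG, SOX2, POU5F1, LIN28A, LIN28B, DPPA4, SALL4, TDGF1, DNMT3B and L1TD1, were followed in differentiated cells with and without MSX2. They were chosen by symbol, and each of the 10 had 1 row among the 56595 different symbols of the deposited expression table. The table holds RNA-seq of 6 libraries made at day 8 of hematopoietic differentiation of H1, an established human embryonic stem cell (hESC) line, as FPKM, fragment counts scaled to transcript length and to library size.

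WT, the control, was H1 labelled as wild type and had 2 libraries. MSX2-/- was H1 edited with CRISPR/Cas9, with guide RNAs against the second exon of MSX2 delivered by lentivirus, and had 4 libraries, 2 from each of the clones called 1# and 2#. Each edited line was grown from a small colony picked after plating as separate cells, and a difference between WT and 1 clone cannot be told apart from a difference between cell lines. All libraries shared the same medium steps, which the labels give as activin A with BMP4 and then VEGF with bFGF. The labels describe the MSX2-/- libraries as CD31+ cells and leave the selection of the WT cells unnamed, whereas the methods of the study name CD31+ cells for both. The growth protocol speaks of overexpressed HAND1, which the methods do not mention, and HAND1 mRNA, a mesoderm factor, was higher in MSX2-/- (14.1, 9.61, 22.5 and 10.5 FPKM) than in WT (2.32 and 1.14 FPKM, adjusted p = 0.0382 from limma). The 8 mesoderm markers summed to 102 to 113 FPKM in MSX2-/- against 340 and 395 FPKM in WT. APLNR, the apelin receptor and most abundant of them, was lower (log2 fold change −2.06, adjusted p = 0.00535 from limma). It was the 1 of 6 tested mesoderm markers with a log2 fold change below 0. The other 5 were above 0, and the median was 0.30, so the sum mostly followed APLNR. The labels also carry a letter for each replicate number, F for replicate 1 and S for replicate 2, and do not say what it stands for.

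The pluripotent state is held by a small network of transcription factors around POU5F1 (OCT4), SOX2 and NANOG, which bind next to each other and maintain their own expression. When hESCs leave this state towards mesoderm, endothelium and blood, the network is shut down, while RNA-binding and chromatin proteins of early embryonic cells, such as LIN28B and SALL4, are also known from fetal tissues including the blood-forming cells of the fetus. LIN28A and LIN28B block the maturation of let-7, a microRNA family that rises as cells differentiate and that represses a set of growth-related mRNAs, LIN28 mRNAs among them.

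MSX2 mRNA was not lower in the libraries labelled MSX2-/-, with 18.0, 5.62, 31.8 and 6.69 FPKM against 3.64 and 1.44 FPKM in WT, so it did not check the labels (log2 fold change 1.99, standard error 0.69, adjusted p = 0.309 from limma, past the threshold with the replicate number as a block at 0.0107), and every direction between genotypes given here rests on them. FPKM values summed to between 555286 and 617120 per library, 13366 to 14222 genes reached 1 FPKM, and the number of reads is not given by the table. Endothelial markers were present in all 6 libraries. The 12 markers were all tested. Their sums were 3330 and 4120 FPKM in WT, 2320 and 3390 FPKM in 1#, and 2270 and 3500 FPKM in 2#, replicate 1 first. CDH5 and TIE1 were lower in MSX2-/- (7 of the 12 with the replicate block). The 12 hematopoietic markers summed to 134 and 172 FPKM in WT and to between 347 and 449 FPKM in MSX2-/-, and GFI1, KLF1 and GATA1 were among the 4 higher there (8 of 11 tested with the block), while PTPRC (CD45) stayed between 0 and 0.115 FPKM. Of all genes tested, 1.28% passed between the genotypes and 9.85% with the block. The 8 mesenchymal markers summed to 132 and 189 FPKM in WT and to between 368 and 415 FPKM in MSX2-/-. Of 10 proliferation genes, all 10 were higher in every library of replicate 2 than in any of replicate 1, with sums of 253 to 292 against 142 to 168 FPKM. The same held for 2988 of the 15895 genes tested. Other markers also moved with the replicate number. In replicate 2, 5 of 12 endothelial markers were higher and 0 lower. Of 11 tested hematopoietic markers, 4 were higher and 1 lower, and of 6 tested mesoderm markers, 1 was higher and 4 lower. Of all genes tested, 15.6% were higher and 18.9% lower. In bulk RNA, a change in the number of cells of one type and a change of the RNA per cell cannot be told apart. The part of these differences in the results for the pluripotency genes was not tested.

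The 10 genes did not share one level at day 8. SOX2 and NANOG were at or near 0, POU5F1, TDGF1 and L1TD1 were low, and LIN28A, DNMT3B, DPPA4, SALL4 and LIN28B were at levels common for expressed genes. The mean over the 6 libraries was 52.5 FPKM for LIN28A, 32.5 for DNMT3B, 27.5 for DPPA4, 16.5 for SALL4 and 12.2 for LIN28B. It then fell to 2.65 FPKM for POU5F1, 1.52 for TDGF1 and 0.589 for L1TD1, and to 0.0782 for NANOG and 0.0247 for SOX2. FPKM is scaled to transcript length, so these levels can be set beside each other. Tests covered the 15895 genes whose mean reached 0.5 FPKM, and among them LIN28A stood at the 87.6th percentile, DNMT3B at the 80.3th, DPPA4 at the 77.3th, SALL4 at the 66.9th and LIN28B at the 59.5th. POU5F1 stood at the 28.4th, TDGF1 at the 19.0th and L1TD1 at the 2.94th percentile. Only 2 steps in this order separated neighbours in every library pair, namely DPPA4 above SALL4 and LIN28B above POU5F1. All other neighbours had overlapping ranges, although LIN28A exceeded DNMT3B within each of the 6 libraries. No library of undifferentiated hESCs was analysed here, so the values are levels at day 8 and do not measure how much of an earlier level was retained.

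**Figure D1:**
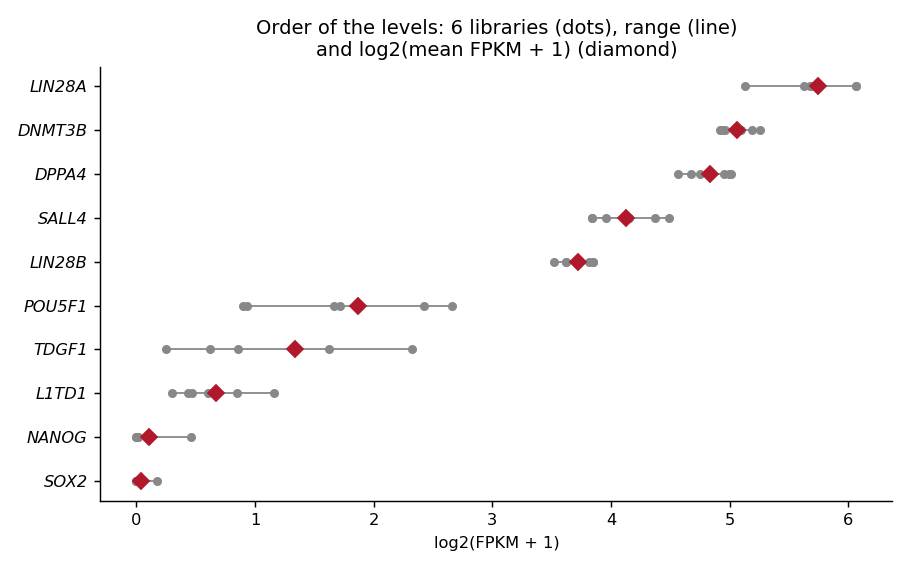
Levels of the 10 pluripotency genes as log2(FPKM + 1), with the 6 libraries as dots, their range as a line and the mean FPKM on the same scale as a diamond. LIN28A, DNMT3B, DPPA4, SALL4 and LIN28B lie apart from POU5F1 and the genes below it, and NANOG and SOX2 lie near 0.

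Between MSX2-/- and WT, 0 of the 8 pluripotency genes that could be tested passed the threshold, or 1, LIN28A, with the replicate number as a block. Between replicate 2 and replicate 1, LIN28A and DNMT3B were higher and SALL4 was lower. NANOG and SOX2 fell below the filter on the mean and were not tested. The test was limma on log2(FPKM + 1) with Benjamini-Hochberg adjustment over all genes tested and a threshold of 0.05 for the adjusted p, and every fold change is a difference on that scale, so that changes of low genes come out too small. For 4 MSX2-/- against 2 WT libraries, 1.28% of all genes tested passed (204 genes), and the adjusted p of the 8 genes ran from 0.43 for DPPA4 to 0.986 for POU5F1. No one of the 8 had an unadjusted p under 0.05, the lowest being 0.0514 for DPPA4. The median log2 fold change was 0.18 over the 8 genes and 0.01 over all genes tested. With the replicate number as a block, 9.85% of all genes passed (1566 genes) and so did 1 of the 8, LIN28A. For replicate 2 against replicate 1, with genotype as a term, 3 of 8 genes passed beside 34.6% of all genes tested. Of these, 2 were higher beside 15.6% of all genes and 1 was lower beside 18.9% of all genes. At this threshold, the share of the 8 that differed was near that of all genes. Counted by an unadjusted p under 0.05 from the same limma fit, 7 of the 8 genes differed, beside 7364 of the 15895 genes tested. DPPA4 was the exception. POU5F1, LIN28B, TDGF1 and L1TD1 had adjusted p-values of 0.053 to 0.0714, so the comparison with all genes depended on the cutoff. The median log2 difference was −0.28 over the 8 genes and −0.03 over all genes tested.

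**Figure D2:**
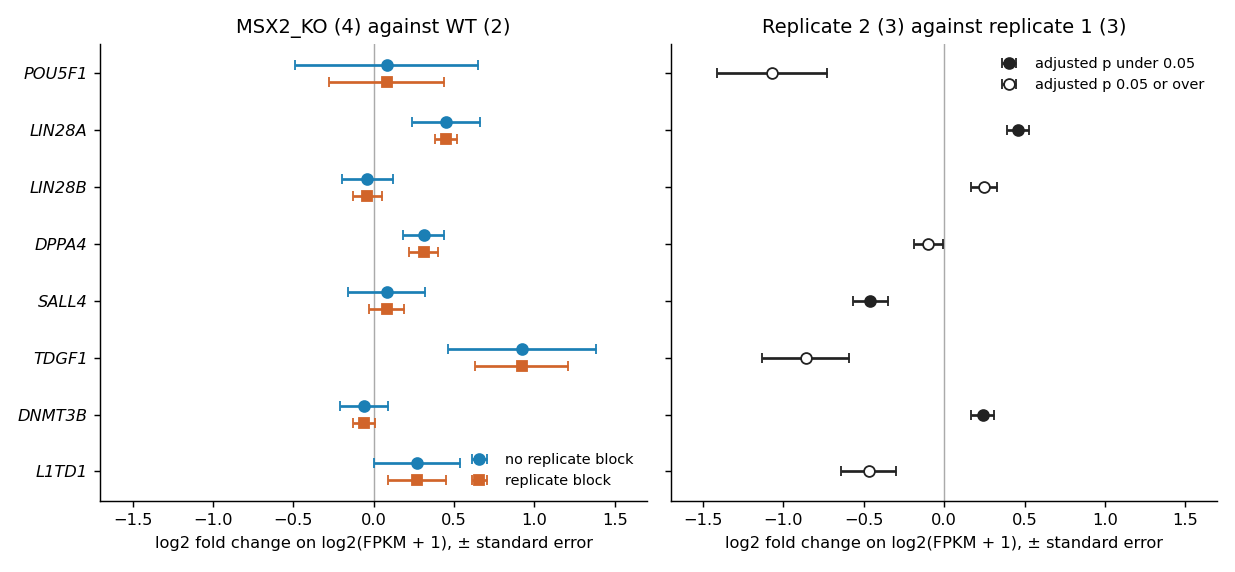
Log2 fold changes on the log2(FPKM + 1) scale with their standard errors, for 4 MSX2-/- against 2 WT libraries without and with the replicate block (left) and for 3 libraries of replicate 2 against 3 of replicate 1 (right). On the left, the block leaves the estimates in place and narrows the error, and LIN28A alone passes with it. On the right, LIN28A, SALL4 and DNMT3B are filled as past the threshold.

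Overlap of the groups was counted next. DPPA4 was the only one of the 8 genes whose 4 MSX2-/- libraries all lay beyond WT, beside 21.3% of all genes tested. All 3 libraries of replicate 2 lay above those of replicate 1 for LIN28A, LIN28B and DNMT3B and below them for SALL4 and L1TD1, which makes 5 of 8 genes beside 41.5% of all genes tested. Within the replicate numbers, each MSX2-/- library was compared with the WT library of its own number. LIN28A, DPPA4, TDGF1 and L1TD1 were above WT in 4 of 4 such comparisons, LIN28B was below in 4 of 4 at ratios of 0.925 to 0.996, and POU5F1, SALL4 and DNMT3B were mixed. Of all genes tested, 44.9% lay on one side in all 4 comparisons. Within WT, 1# and 2#, replicate 2 lay on the same side of replicate 1 in all 3 for 6 of the 8 genes, all but POU5F1 and DPPA4, beside 62.4% of all genes tested. The smallest p that an exact permutation test could give was 0.0667 for 4 against 2 libraries and 0.10 for 3 against 3, so such a test could not pass for any single gene.

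**Figure D3:**
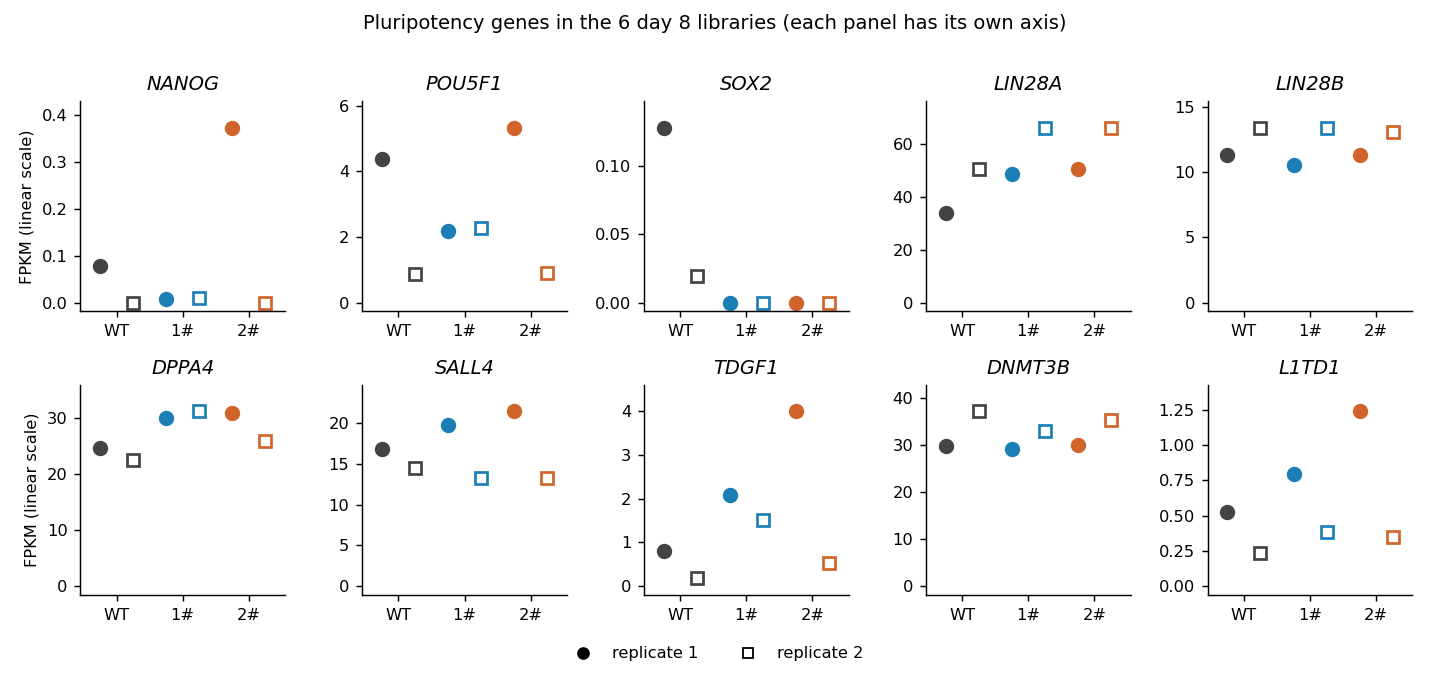
FPKM of each of the 10 genes in the 6 libraries, on a linear axis of its own per gene, with WT, 1# and 2# along the horizontal axis, filled circles for replicate 1 and open squares for replicate 2. LIN28A, LIN28B and DNMT3B have the squares above the circles in every genotype, SALL4 and L1TD1 have them below, and SOX2 is at 0 in all MSX2-/- libraries.

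The core network was followed first. NANOG, a homeodomain factor that stabilises self-renewal, spans 7787794 to 7799141 of chromosome 12, plus strand (GRCh38). The replicate 1 libraries had 0.0785 (WT), 0.00829 (1#) and 0.373 FPKM (2#), and the replicate 2 libraries 0, 0.00964 and 0 FPKM in the same order. Only 2# replicate 1 stood out, at a level still under the 0.5 FPKM filter. SOX2, which pairs with POU5F1 on DNA in hESCs and is also a factor of neural progenitors, lies on chromosome 3 from 181711924 to 181714436. WT replicate 1 had 0.128 FPKM and WT replicate 2 had 0.0196 FPKM, while SOX2 was listed at 0 in all 4 MSX2-/- libraries. With no filter, when 30029 genes were tested, neither NANOG (log2 fold change 0.07, standard error 0.15, adjusted p = 0.91 from limma) nor SOX2 (−0.10, standard error 0.04, adjusted p = 0.582) passed between MSX2-/- and WT. Between the replicate numbers they did not pass either, with adjusted p-values of 0.436 and 0.467.

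POU5F1 encodes OCT4, the POU factor without which the pluripotent state is lost. The gene spans 31164337 to 31180731 of chromosome 6, minus strand. The replicate 1 libraries had 4.36 (WT), 2.18 (1#) and 5.33 FPKM (2#), and the replicate 2 libraries 0.869, 2.28 and 0.911 FPKM. Replicate 2 was thus at 0.199 of replicate 1 in WT and at 0.171 in 2#, while the pair of 1# was at 1.05. WT averaged 2.61 ± 2.47 FPKM (SD, n = 2) and MSX2-/- 2.67 ± 1.87 FPKM (SD, n = 4), which gave a log2 fold change of 0.08 with a standard error of 0.57 (adjusted p = 0.986 from limma). Its sign changed when single libraries were left out, to −0.68 without WT replicate 2 and −0.22 without 2# replicate 1. Replicate 2 differed from replicate 1 by −1.07 on the log2 scale (standard error 0.34, adjusted p = 0.0534). It was past the threshold without 1# replicate 1 (adjusted p = 0.0285) or 1# replicate 2 (adjusted p = 0.0466), or with a filter at a mean of 1 FPKM (adjusted p = 0.0479). The annotated exons of POU5F1 share 248 of their 2896 bases with TCF19 on the other strand, which had 0.852 to 1.33 FPKM, and the use of strand in counting is not given in the sources used here.

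Processed copies of NANOG and POU5F1 elsewhere in the genome can take reads or primers of the parent genes, so the primers that the study lists for the core network are shown with what they match. The study reports real-time PCR of NANOG, SOX2 and POU5F1 in undifferentiated cells, with little difference between WT and MSX2-/-. The FPKM values at day 8 do not come from these primers. Primers were searched as exact letters in all annotated transcripts.
NANOG forward: tttgtgggcctgaagaaaact
NANOG reverse: agggctgtcctgaataagcag
POU5F1 forward: cttgaatcccgaatggaaaggg
POU5F1 reverse: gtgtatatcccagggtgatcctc
SOX2 forward: gccgagtggaaacttttgtcg
SOX2 reverse: ggcagcgtgtacttatccttct
The NANOG pair matched 4 genes, NANOG itself with a product of 116 bases and the pseudogenes NANOGP4, NANOGP8 and NANOGP9 with products of 115, 116 and 116 bases. The POU5F1 pair matched POU5F1 alone, with a product of 164 bases, although its reverse primer was found in 4 genes. The SOX2 pair matched SOX2 alone, with a product of 155 bases. In the table, all 12 listed copies and family genes of the core factors and other members were below the filter. NANOGP8 was listed at 0.0739 FPKM in 2# replicate 1, the library in which NANOG was highest, and at 0 in the other 5 libraries. NANOGP1 was listed at 0.0473 and 0.0727 FPKM in the libraries of 1# and at 0 elsewhere. POU5F1P3 ranged from 0 to 0.329 FPKM, with the highest value again in 2# replicate 1. Reads shared between such copies and their parents could make the low values of NANOG and POU5F1 uncertain, and such sharing was not examined.

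The NANOG promoter shows how the core factors meet on DNA, since POU5F1 and SOX2 are known to bind it side by side. The 250 bases before its RefSeq start, chr12:7789152-7789401 on the plus strand (GRCh38.p14), are given with an octamer-type motif (TTTGCAT) and a SOX-type motif (ACAATG) in capitals.
NANOG promoter: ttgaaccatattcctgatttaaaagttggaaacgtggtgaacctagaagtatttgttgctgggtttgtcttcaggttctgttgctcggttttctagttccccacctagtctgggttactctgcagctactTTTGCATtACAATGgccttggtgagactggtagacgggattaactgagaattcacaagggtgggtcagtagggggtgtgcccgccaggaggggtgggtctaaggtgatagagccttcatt
SOX2 promoter: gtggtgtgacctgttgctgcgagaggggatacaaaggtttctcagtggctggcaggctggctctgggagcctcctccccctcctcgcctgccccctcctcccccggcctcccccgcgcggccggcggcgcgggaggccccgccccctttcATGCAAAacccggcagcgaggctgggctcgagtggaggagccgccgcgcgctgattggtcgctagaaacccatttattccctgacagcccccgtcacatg
The SOX2 sequence is chr3:181711675-181711924 on the plus strand, with the octamer-type motif on the other strand in capitals. Both strands of the same window of all 35116 RefSeq promoters were searched, and 3.94% held the octamer-type motif and 9.29% the SOX-type motif. The 2 motifs with 1 base between them were found in 2 promoters (0.0057%), NANOG among them. Promoters were matched for 6 of the 10 genes, and 2 of these, NANOG and SOX2, held the octamer-type motif. Both genes were at or near 0 in these libraries. A match of letters is a description and not evidence of binding.

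LIN28A and LIN28B were expressed in every library. LIN28A, the highest of the 10 genes, lies on chromosome 1 from 26410778 to 26429722. The replicate 1 libraries had 34.0 (WT), 48.5 (1#) and 50.3 FPKM (2#), and the replicate 2 libraries 50.6, 65.8 and 66.1 FPKM. Replicate 2 was above replicate 1 in each genotype, and both clones were above WT of the same number, with ratios of 1.43 and 1.48 in replicate 1 and of 1.3 and 1.31 in replicate 2. WT averaged 42.3 ± 11.8 FPKM (SD, n = 2) and MSX2-/- 57.7 ± 9.57 FPKM (SD, n = 4). The log2 fold change of 0.45 did not pass without the block (standard error 0.21, adjusted p = 0.502 from limma) and passed with it (standard error 0.07, adjusted p = 0.0143). In replicate 2, LIN28A rose by 0.46 on the log2 scale (standard error 0.07, adjusted p = 0.00464). That call was kept without each of the 6 libraries in turn, with adjusted p-values of 0.015 to 0.0253, and it was lost without the genotype term (adjusted p = 0.121). The proliferation genes moved with the replicate numbers, as did part of the endothelial, hematopoietic and mesoderm markers. The hematopoietic markers moved with the genotype, as given above. The part of any of these in the level of LIN28A was not tested.

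LIN28B, the paralog that is also known from the fetal liver and other fetal tissues, lies on chromosome 6 from 104936616 to 105083332. It had 11.3 and 13.4 FPKM in WT, 10.5 and 13.4 FPKM in 1#, and 11.3 and 13.1 FPKM in 2#. The 3 libraries of replicate 1 were all below the 3 of replicate 2, at 11 ± 0.474 against 13.3 ± 0.154 FPKM (SD, n = 3 each), and the genotypes overlapped. MSX2-/- differed from WT by −0.04 on the log2 scale (standard error 0.16, adjusted p = 0.976 from limma), and replicate 2 from replicate 1 by 0.25 (standard error 0.08, adjusted p = 0.0561), short of the threshold. The small fold between genotypes turned positive without WT replicate 2 or without 1# replicate 1. Over the 6 libraries LIN28B ranged from 10.5 to 13.4 FPKM, against 34.0 to 66.1 FPKM for LIN28A. An antisense gene, LIN28B-AS1, shares 67 exon bases with LIN28B and had 0.0309 to 0.619 FPKM.

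The let-7 family is the known target of both LIN28 proteins, and its members share the bases by which they pair with mRNAs. Mature let-7 was not measured in these libraries. The mature sequences of RefSeq (5′ to 3′) are given with the seed, bases 2 to 8, in capitals.
hsa-let-7a-5p: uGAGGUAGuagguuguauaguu
hsa-let-7b-5p: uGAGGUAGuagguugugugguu
hsa-let-7g-5p: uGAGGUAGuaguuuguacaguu
hsa-miR-98-5p: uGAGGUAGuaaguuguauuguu
All 9 mature 5p sequences of the family shared this seed. LIN28 is known to hold let-7 precursors through the letters GGAG in the terminal loop, and 9 of 12 hairpins contained them at any position, in capitals in the first of the following hairpins and absent from the second.
MIRLET7G hairpin: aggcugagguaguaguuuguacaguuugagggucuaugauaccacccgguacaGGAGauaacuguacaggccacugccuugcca
MIRLET7B hairpin: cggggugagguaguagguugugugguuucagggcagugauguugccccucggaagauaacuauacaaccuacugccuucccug
The complement of the seed, CTACCTC, was searched in the 3′ UTR of the transcript used for each gene. It was found once in LIN28A and in SALL4 and 4 times in LIN28B, and in none of the other 7 genes. Of 18801 genes with a 3′ UTR, 8.65% held it at least once. The sites are shown with the surrounding bases, on the strand of the gene.
LIN28A chr1:26427352-26427380: agcctattgaaCTACCTCatttttgccaa
LIN28B chr6:105078816-105078844: ggttgcaaagtCTACCTCatgcaagtata
LIN28B chr6:105081425-105081453: acagcaaaaggCTACCTCatagttgatac
SALL4 chr20:51782913-51782941: ctttaatttatCTACCTCatttatttttt
These 4 sites continue with A after the seed match, which 3.29% of the 3′ UTRs held, and the other sites in LIN28B do not. Positions are in GRCh38. The 3 genes with a site were all among the 5 most expressed of the 10. A site is a match of letters and does not show that let-7 acted on these mRNAs.

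SALL4, DPPA4 and L1TD1 belong to the wider circle of the network. SALL4, a zinc finger repressor that binds with the core factors and is also used by fetal blood-forming and liver progenitors, spans 51782331 to 51802520 of chromosome 20, minus strand. Its level was 16.8 and 14.5 FPKM in WT, 19.7 and 13.3 FPKM in 1#, and 21.4 and 13.3 FPKM in 2#, with replicate 1 first. Replicate 2 was below replicate 1 in each genotype, with means of 13.7 ± 0.685 against 19.3 ± 2.32 FPKM (SD, n = 3 each), and SALL4 fell by 0.46 on the log2 scale (standard error 0.11, adjusted p = 0.0203 from limma). The call was lost when any 1 of the 4 MSX2-/- libraries was left out, with adjusted p-values of 0.0704 to 0.0792, and without the filter (adjusted p = 0.0607). The drop was 0.675 and 0.623 as a ratio in 1# and 2# and 0.861 in WT, and the test of this difference between genotypes did not pass (unadjusted p = 0.0501, adjusted p = 0.436). For MSX2-/- against WT the difference was 0.08 (standard error 0.24, adjusted p = 0.963), with a sign that turned without WT replicate 2 or 2# replicate 1.

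DPPA4, a DNA-binding protein that is used as a marker of pluripotent and early germ cells, lies on chromosome 3 from 109326141 to 109337572. It had 24.6 and 22.6 FPKM in WT, 30.0 and 31.2 FPKM in 1#, and 30.8 and 25.9 FPKM in 2#. All 4 MSX2-/- libraries were above both WT libraries, at 29.5 ± 2.46 FPKM (SD, n = 4) against 23.6 ± 1.42 FPKM (SD, n = 2), a ratio of 1.25. Its log2 fold change of 0.31 did not pass (standard error 0.13, limma's adjusted p = 0.43, or 0.0979 with the block), and it stayed between 0.25 and 0.37 with each library left out. DPPA4 differed between the replicate numbers by −0.10 (standard error 0.09, adjusted p = 0.413), the smallest difference of the 8 genes.

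L1TD1, an RNA-binding protein derived from a LINE-1 element that is a known companion of LIN28A in hESCs, lies on chromosome 1 from 62194831 to 62212328. It was low, with 0.523 and 0.234 FPKM in WT, 0.796 and 0.383 FPKM in 1#, and 1.24 and 0.352 FPKM in 2#. Replicate 2 was below replicate 1 throughout, with a log2 difference of −0.47 (standard error 0.17, adjusted p = 0.0714 from limma), and this passed only without the mean-variance trend (adjusted p = 0.0369). Both clones were above WT of the same replicate number, by ratios of 1.5 to 2.38, while the groups overlapped and the log2 fold change of 0.27 did not pass (standard error 0.27, adjusted p = 0.815). LIN28A, its companion, had the opposite sign between the replicate numbers.

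TDGF1 (CRIPTO) is the surface co-receptor through which NODAL signals in hESCs and early mesoderm, and it lies on chromosome 3 from 46574534 to 46582463. It had 0.808 and 0.191 FPKM in WT, 2.08 and 1.52 FPKM in 1#, and 3.99 and 0.537 FPKM in 2#. The mean was 2.03 ± 1.45 FPKM (SD, n = 4) in MSX2-/- and 0.499 ± 0.436 FPKM (SD, n = 2) in WT, a ratio of 4.07 and the largest of the 8 genes. The spread was as large, and 2# replicate 2 lay below WT replicate 1. On the log2 scale the difference was 0.92 (standard error 0.46, adjusted p = 0.527 by limma and 0.105 with the block). It ran from 0.62 without WT replicate 2 to 1.22 without WT replicate 1. The log2 difference of replicate 2 from replicate 1 was −0.86 (standard error 0.27, adjusted p = 0.053), and it passed with a pseudocount of 0.1 FPKM in place of 1 (−1.58, adjusted p = 0.0362). TDGF1 shares 110 of its 3006 exon bases with LRRC2 on the other strand, which had 0.0883 to 0.505 FPKM.

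The genes around TDGF1 were described from a list of 17 genes of NODAL signalling, 14 of which were tested. The ligand NODAL was at 0.106 to 0.203 FPKM and below the filter. FOXH1, the DNA-binding partner of SMAD2 at NODAL targets, had 1.31 and 1.16 FPKM in WT and 6.81, 4.23, 7.11 and 5.23 FPKM in MSX2-/-, with no overlap. It was the 1 gene of the list that was higher in MSX2-/-, beside 1.28% of all genes called, and none was lower (log2 fold change 1.59, standard error 0.23, adjusted p = 0.0328 from limma). The call was lost when any 1 of the 6 libraries was left out, with adjusted p-values of 0.0737 to 0.202, with the clones as 3 groups (0.111) and without the filter (0.0865), and it held with the block (adjusted p = 0.00299), where GDF3 was among the genes of the list that were higher too, beside 9.85% of all genes called. The list had a median log2 fold change of 0.03 beside 0.01 over all genes tested. GDF3 and SMAD4 were higher and SMAD3 was lower in replicate 2, and 11 genes did not pass, beside 34.6% of all genes called. GDF3, a TGFβ-family ligand of hESCs, went from 2.12, 3.41 and 3.38 FPKM to 5.36, 9.77 and 11.9 FPKM, a log2 difference of 1.29 (standard error 0.14, adjusted p = 0.002). SMAD3 went from 14.0, 11.1 and 16.1 FPKM to 7.36, 7.58 and 7.44 FPKM, a log2 difference of −0.79 (standard error 0.14, adjusted p = 0.00942).

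DNMT3B sets new methyl groups on CpG sites in early embryonic cells, and it lies on chromosome 20 from 32762385 to 32809356. It had 29.8 and 37.2 FPKM in WT, 29.2 and 33.1 FPKM in 1#, and 30.1 and 35.4 FPKM in 2#. The libraries of replicate 1 were within 29.2 to 30.1 FPKM and those of replicate 2 all above them, with means of 29.7 ± 0.471 and 35.2 ± 2.05 FPKM (SD, n = 3 each). DNMT3B rose by 0.24 on the log2 scale (standard error 0.07, adjusted p = 0.0429 from limma). This call was lost when any 1 of the 6 libraries was left out, with adjusted p-values of 0.0716 to 0.138, and also without the genotype term, with the clones as 3 groups, without the filter or without the trend, at 0.0536 to 0.0856. MSX2-/- differed from WT by −0.06 (standard error 0.15, adjusted p = 0.949), which turned to 0.09 without WT replicate 2.

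Other genes of DNA methylation were taken from a list. Of 12 genes listed, 11 were tested, 4 were higher in replicate 2 and none was lower, beside 15.6% of all genes higher and 18.9% lower, with a median log2 difference of 0.20 beside −0.03 over all genes tested. They were UHRF1 and DNMT1, which copy methylation after replication, the methyl-binding family gene MBD3, and TET3, which oxidises 5-methylcytosine. MBD3 had 63.3, 57.2 and 63.8 FPKM in replicate 1 and 110, 100 and 98.1 FPKM in replicate 2, a log2 difference of 0.73 (standard error 0.07, adjusted p = 0.00148 from limma). The calls of MBD3 and TET3 were kept without each of the 6 libraries, and those of UHRF1 and DNMT1 in 4 and 2 of 6. DNMT3A, the other de novo enzyme, had 64.5 and 85.5 FPKM in WT and 47.7 to 65.7 FPKM in MSX2-/-, with an adjusted p of 0.413 between genotypes and 0.0541 between replicate numbers. DNMT3L, the cofactor of pluripotent and germ cells, was listed at 0 to 0.0595 FPKM. Between the genotypes none of the 11 genes passed by limma without the block, DNMT3A being at an unadjusted p of 0.0477. With the block 1 passed, CDCA7, a cofactor of maintenance methylation, which was lower in MSX2-/- (11.1, 12.3, 12.1 and 11.9 FPKM) than in WT (15.3 and 22 FPKM, adjusted p = 0.0355).

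Within the genotypes, the difference between replicate 2 and replicate 1 was compared with the test of the genotype by replicate interaction. None of the 8 genes passed, beside 3 genes (0.0189%) of all genes tested, and none had an unadjusted p under 0.05. WT has 1 library at each replicate number, so the spread in this test came from the clones alone and WT is assumed to vary like them. The adjusted p-values ran from 0.436 for SALL4 to 0.972 for DPPA4. POU5F1 showed the widest range, with log2 differences of −1.52 in WT, 0.05 in 1# and −1.73 in 2#, but with 1 library at each point this spread between the clones has no replicate. TDGF1 differed by −0.60 in WT, −0.29 in 1# and −1.7 in 2#. LIN28A differed by 0.56, 0.43 and 0.39, and LIN28B by 0.23, 0.32 and 0.20.

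**Figure D4:**
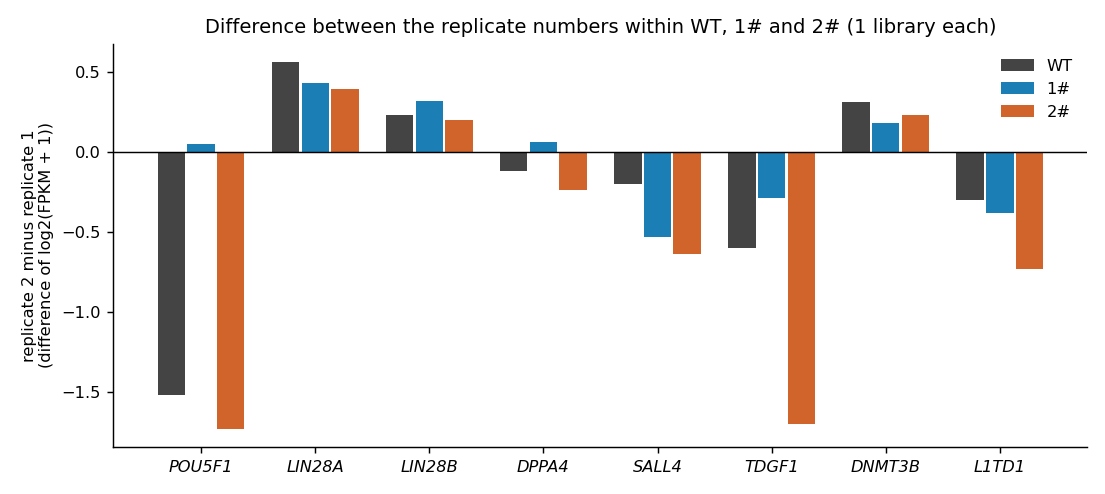
Replicate 2 minus replicate 1 as a difference of log2(FPKM + 1) for the 8 genes tested, within WT, 1# and 2#, with 1 library on each side of every bar and so no error bar. LIN28A, LIN28B and DNMT3B are above 0 and SALL4, TDGF1 and L1TD1 below 0 in all 3, while POU5F1 and DPPA4 have 1# on the other side.

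The clones were also fitted as separate groups. None of the 8 genes passed for 1# against WT, beside 0.00629% of all genes tested (1 gene), or for 2# against WT, again beside 0.00629% (1 gene), or for 2# against 1#, beside 0% (0 genes from limma, with 225 at an unadjusted p under 0.05). These fits had no replicate block, and in them none of the 8 had an unadjusted p under 0.05. The lowest adjusted p was 0.773 for 1# against WT and 0.893 for 2# against WT. LIN28A was 0.44 higher in 1# and 0.47 higher in 2# than in WT on the log2 scale (standard error 0.28 each), and TDGF1 was 0.92 higher in both (standard error 0.58 each). With the block none of the 8 passed for either clone against WT, beside 550 (1#) and 590 (2#) of all genes. LIN28A then had a standard error of 0.10 and unadjusted p-values from limma of 0.00459 in 1# and 0.0034 in 2# (adjusted 0.0801 and 0.068). Unadjusted p-values with the block were 0.0459 and 0.0474 for TDGF1, and 0.0225 for DPPA4 in 1#. Both clones share the WT libraries, so these values are not independent of each other.

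Beyond the 10 genes, 45 other genes of the pluripotent state were listed, and 29 of them were tested. MSX2-/- against WT gave 0 calls among the 29, with a median log2 fold change of 0.06. With the block, 4 were higher and 1, CD24, was lower (adjusted p = 0.0326 from limma), beside 9.85% of all genes called. All 4 MSX2-/- libraries lay above both WT libraries for 4 of the 29, ZFP42 among them. They lay below for 3, CD24 among them (250 and 290 FPKM in WT, 141 to 200 FPKM in MSX2-/-). Of all genes tested, 21.3% lay above or below in this way. In the replicate comparison 6 were higher and 8 lower in replicate 2, with a median of −0.14, beside 15.6% of all genes higher and 18.9% lower. KLF4, a reprogramming factor that is also known from endothelium, had 1.57, 1.91 and 3.06 FPKM in replicate 1 and 6.99, 7.10 and 7.10 FPKM in replicate 2, a log2 difference of 1.37 (standard error 0.17, adjusted p = 0.00292 from limma). OTX2, SALL2 and FZD7, factors and a receptor of primed hESCs and early ectoderm or mesoderm, were among the lower genes, with log2 differences of −1.04, −1 and −0.99. For SALL2 the 3 libraries of replicate 1 lay between 15 and 16.6 FPKM and those of replicate 2 between 6.86 and 7.81 FPKM. KLF4 and these 3 genes kept their calls without each of the 6 libraries. PODXL, which encodes the carrier of the TRA-1-60 antigen and is also a sialomucin of endothelium, was higher in replicate 2 (log2 difference 0.84, adjusted p = 0.0307) and kept its call in 2 of 6. MYCN was higher by 0.66 (adjusted p = 0.0053) and kept its call in 6 of 6. The proliferation genes, which were higher in replicate 2 as well, are given above, and their part in these differences was not tested. Genes closely tied to the core network were low, with ZFP42 at 0.405 to 2.41 FPKM, DPPA2 at 0.0423 to 0.798 FPKM and PRDM14 at 0 to 0.0462 FPKM. THY1 (CD90) and CD24, which are also expressed in many other cells, had the highest means of the list over the 6 libraries, at 603 to 978 and 141 to 290 FPKM, although PODXL exceeded CD24 in 3 of the 4 MSX2-/- libraries.

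Of 18 genes around LIN28 and let-7, 15 were tested. MSX2-/- against WT gave 0 calls among the 15, with a median log2 fold change of 0.06. With the block 2 were higher and 1 was lower, beside 9.85% of all genes called. HMGA1, with 289 and 336 FPKM in WT and 410 to 477 FPKM in MSX2-/-, was among the higher (adjusted p = 0.00618), and HMGA2 was the lower one (adjusted p = 0.0225). In replicate 2, 5 were higher and 3 were lower, with a median of −0.10, beside 15.6% of all genes higher and 18.9% lower. TRIM71, a LIN28-linked ubiquitin ligase and let-7 target, had 11.7, 14.2 and 13.3 FPKM in replicate 1 and 17.5, 15.8 and 17.1 FPKM in replicate 2 (log2 difference 0.34, standard error 0.10, adjusted p = 0.0407 from limma). IGF2BP1, an mRNA-binding protein, and DROSHA, the nuclease that cuts microRNA primary transcripts, were higher by 0.36 and 0.27. HMGA2, an architectural chromatin protein, went from 58.6, 33.7 and 41.7 FPKM to 46.8, 20 and 17.3 FPKM (log2 difference −0.75, standard error 0.16, adjusted p = 0.016). IGF2BP2 was lower by −0.70 (adjusted p = 0.00269), and TUT4 (ZCCHC11), the uridyltransferase that LIN28 recruits to let-7 precursors, by −0.36 (adjusted p = 0.0479). The call of IGF2BP2 was kept without each of the 6 libraries, those of HMGA2, DROSHA, IGF2BP1 and TUT4 in 3, 2, 1 and 1 of 6, and that of TRIM71 in none. Of 13 genes of the list with a 3′ UTR, 8 held the letters CTACCTC, beside 8.65% of all genes with a 3′ UTR. The list was gathered around let-7 and holds let-7 targets such as TRIM71, so this count follows from the choice of genes. Genes with sites did not share a direction, since TRIM71 with 6 sites and IGF2BP1 with 4 were higher while HMGA2 with 4 and IGF2BP2 with 1 were lower in replicate 2.

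Markers of other lineages in which members are also used were examined. DPPA4, LIN28A and POU5F1 can be high in primordial germ cells. Of 12 markers of these cells, DDX4 and DAZL were listed at 0 to 0.0312 and 0 to 0.0317 FPKM. TFAP2C had 0.0313 to 0.815 FPKM and DPPA3 0 to 0.149 FPKM, while SOX17, which is also endothelial, had 165 to 353 FPKM. The filter was reached by 7 of the 12. Of these, PRDM1 (log2 difference 1.11) and SOX17 (0.59) were higher and TFAP2A (−1.22) was lower in replicate 2, beside 15.6% of all genes higher and 18.9% lower. The 10 neural ectoderm markers summed to 134 to 332 FPKM, most of it from TUBB3 and NES, which other cell types also express. Of the 3 tested, NES was higher and NCAM1 lower in replicate 2, and the neural factors SOX1 and SIX3 were listed at 0 in all 6 libraries. The 10 endoderm and hepatic markers summed to 43.7 and 72.5 FPKM in WT, 231 and 199 FPKM in 1#, and 120 and 15.9 FPKM in 2#, so that the list was highest in 1#. FOXA2 and AFP were the 2 of 9 tested endoderm and hepatic markers that were lower in replicate 2, and none was higher, beside 18.9% of all genes lower and 15.6% higher. NANOG, POU5F1, TDGF1, SALL4 and L1TD1 were at their highest in 2# replicate 1, in which the summed list was at 120 FPKM, below both libraries of 1#. FOXA2, a single marker of the 10, had 5.55 FPKM in that library and 0.248 to 3 FPKM elsewhere. The part of endoderm cells in the levels of the pluripotency genes was not tested.

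Genes whose level followed the mean standardized profile of the 8 genes over the 6 libraries were taken by their Pearson correlation, among 13000 genes whose mean reached 1 FPKM and that have a symbol that is not clone-based. The profile was lowest in WT, at −0.41 and −0.38 SD, and highest in 2# replicate 1, at 0.66 SD. The 8 genes did not share one profile, with pairwise r from −0.89 for LIN28B and SALL4 to 0.93 for TDGF1 and L1TD1. Members that moved in opposite directions cancel in the mean, so a gene that follows it need not follow each member. The 5 genes most like it were TNFSF4 (r = 0.992), GNG2 (r = 0.99), GREB1 (r = 0.979), ESRP2 (r = 0.977) and TMEM62 (r = 0.976), each over 6 libraries that share genotype and replicate number and with no test. GREB1, for example, had 10.1 and 11 FPKM in WT, 12.9 and 15.1 FPKM in 1#, and 18.2 and 11 FPKM in 2#. ESRP2, a splicing regulator of epithelial cells, had 0.379 and 0.538 FPKM in WT, 1.03 and 1.48 FPKM in 1#, and 2.28 and 1.07 FPKM in 2#. None of the 5 passed in either comparison (adjusted p-values from limma of 0.294 to 0.714 between genotypes and 0.587 to 0.828 between replicate numbers).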

How the data were processed

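The authors deposited 1 table of FPKM values, 58364 rows with values and 1 without, with 1 column per library and no replicates pooled. Per the labels, the design text names TopHat with Cufflinks and BWA, and the submitters' processing notes name BWA, Bowtie, RSEM and hg19. Which of them made the table, which filters were applied and whether strand was used is not given in the sources used here, and depth is unknown, so no interval or floor based on reads is given. Values of exactly 0 are called listed at 0. The columns number the clones 1 and 2 and the titles differently, so the column names were used and MSX2-/- columns were mapped to the group.

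Differences were tested with limma (version 3.58.1, R 4.3.3) on log2(FPKM + 1) for the 15895 genes whose mean reached 0.5 FPKM, using a mean-variance trend, two-sided, and Benjamini-Hochberg adjustment. Genes across the genome entered 1 fit per comparison, and only the genes listed were printed. P-values measure only the spread between libraries, which may be technical, since the labels do not say that replicates came from separate cultures. The methods of the study speak of independent experiments for each analysis, without naming the RNA-seq libraries. The replicate numbers pair the libraries, because the labels give each number a set letter and replicate differences correlated across genes (r = 0.51 for WT and 1#, 0.54 for WT and 2#, 0.64 for 1# and 2#). The fit without this block was the main one, because the study names no block. It leaves the difference between the replicate numbers in the spread. For LIN28A the standard error was 0.21 without the block and 0.07 with it. A gene that did not pass without the block is thus not shown to be unchanged. The fits were tested on simulated data.

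Positions, transcripts and 3′ UTRs came from the GENCODE annotation of GRCh38 by symbol, which held 54894 of the 56595 symbols (97%), and promoters and microRNAs from RefSeq. Primers were read from the study's supplement. The genes named outside the 10 are MSX2, those of 13 other lists with an adjusted p under 0.05, up to 4 per list and direction, listed copies of the 10 genes and the 5 most correlated genes, while marker lists of cell types are given mainly as sums and counts. Further genes of the lists, such as DNMT3A, NODAL, THY1 and ZFP42, were named after their values were seen, and a few genes that the rule names are not reported here. The genes and lists were chosen with earlier results of these data known.

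The alternatives were the replicate block, WT and the clones as 3 groups, no genotype term, a pseudocount of 0.1, no filter, a filter at 1 FPKM, rescaled libraries, no trend and leaving out each library.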

Additional observations from a re-analysis of the deposited data

Results flagged for a closer look

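NANOG was examined because 1 of the 4 MSX2-/- libraries lay far from the other 3. It had 0.373 FPKM in 2# replicate 1 and 0 to 0.00964 FPKM in the others, so that the gap to the nearest library took 0.974 of the whole range, above Dixon's 95% critical value for 4 samples. Of 33 genes taken for this check in the MSX2-/- libraries, NANOG was the 1 gene so marked. SOX2 is among the 33 but could not be judged, since it was listed at 0 in all 4. Chance marks about 1 in 20 groups of normally distributed values, which FPKM near 0 may not be. A single mark among 33 genes is no more than that rate gives. NANOGP8, a processed copy, was listed at 0.0739 FPKM in the same library and at 0 in the other 5. The cause was not tested.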

How the results depend on the processing

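Between MSX2-/- and WT, 204 genes passed, and 1566 did with the replicate block, 6 with WT and the clones as 3 groups, 125 without the filter, and 11 to 76 with each library left out in turn (fewer samples). Of the 8 pluripotency genes, 1 passed with the block, LIN28A, and 0 in every other alternative run. The block changed no other call of the 8, and of the lists whose calls with it are not given above it raised the germ cell markers from 0 to 2 of 7 and the mesenchymal markers from 2 to 4 of 6. The replicate block raised the calls of 1# against WT from 1 to 550 and those of 2# against WT from 1 to 590. With a pseudocount of 0.1, 0 passed for 1# against WT and 1 for 2# against 1#, and without the filter 0 passed for 1# and 0 for 2# against WT. The interaction of genotype and replicate number passed for 0 genes with a pseudocount of 0.1 and for 693 without the filter, where genes near 0 enter. Between replicate 2 and replicate 1, 5492 genes passed, and 3112 did without the genotype term, 3593 without the filter and 3091 to 4707 with each library left out. Of the 8 genes, 3 passed, and 1 did without the genotype term, 1 without the filter and 1 to 2 with each library left out. The cause was not tested.

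In all, 4 genes changed sign between MSX2-/- and WT when single libraries were left out, with log2 fold changes from −0.68 to 0.84 for POU5F1, −0.15 to 0.08 for LIN28B, −0.04 to 0.18 for SALL4 and −0.22 to 0.09 for DNMT3B, and none of them passed in any setting. Of 103 values of the 8 genes between the replicate numbers under the alternatives, 82 kept direction and call, 16 lost the call, 5 gained it and none changed direction. Depth is unknown, so the precision of the low values of NANOG, SOX2 and L1TD1 cannot be given.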
